A study of Homo sapiens with 12 samples.

Results

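Human mast cell lines were compared for 10 genes that encode cytokines and growth factors which mast cells are known to make: TNF, LTB, IL1B, IL4, IL5, IL6, IL13, CSF2, LIF and TGFB1. The genes were matched by symbol among the 58381 genes of the count table, and all 10 were found there. RNA was measured in 12 libraries, 3 from each of 4 groups of HMC-1 cells, a line that came from a patient with mast cell leukemia. HMC-1.1 cells carry the KIT variant V560G. In HMC-1.2 cells V560G and D816V are both present. HMC-1.3 clone 1 and HMC-1.3 clone 2 carry D816V alone and were made from HMC-1.2 by reversing V560G with CRISPR/Cas9, after puromycin selection and limiting dilution. Each group is thus 1 subline or 1 clone. The 3 libraries of a group are repeats of that line, so p-values measure the spread between repeats and not between independently derived lines. HMC-1.1 and HMC-1.2 can differ in more than KIT, and this cannot be told apart from the KIT variants. The clones also went through editing, selection and cloning, with a silent KIT change designed into the repair template. No unedited clone is among the groups, so effects of these steps cannot be told apart from the reversal of V560G.

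Mast cells store some mediators in granules and make others on demand. TNF and LTB encode ligands of the TNF family, and LTB protein is held at the cell surface with lymphotoxin alpha. IL4, IL5, IL13 and CSF2 encode cytokines that lie in a shared gene cluster and act in type 2 immunity and on myeloid cells, whereas IL6 and LIF act through receptors that contain gp130. IL1B is made as a precursor that inflammasome caspases cut, and TGFB1 is secreted in a latent form. Many cytokine mRNAs are short-lived because proteins such as those of the ZFP36 family bind AU-rich elements in their 3′ untranslated region.

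Total expected counts ran from 29225900 to 43181402 per library. KIT, the receptor that defines the lineage, was at 356 to 450 FPKM (fragments corrected for gene length and depth) in the group means, and 10 or 11 of 14 mast cell markers reached 1 FPKM in each group. CMA1, the chymase gene, had 0 to 4 counts per library. Of 8 monocyte markers only LYZ reached 1 FPKM, with a summed level of 1.6 to 2.57 FPKM per library over the list. Over a list of 10 lymphocyte markers the summed level per library was 12.7 to 14.5 FPKM for HMC-1.2 and 4.12 to 6.37 FPKM elsewhere, and NCAM1 reached 1 FPKM in HMC-1.2. The T cell genes CD3D, CD3E, CD3G and CD8A and the B cell gene MS4A1 had at most 3 counts in all 12 libraries. The part of the lymphocyte list in the results was not tested. None of 8 stromal and endothelial markers reached 1 FPKM. The labels mark 3 libraries as resent, namely HMC-1.2 replicate 1, clone 1 replicate 3 and clone 2 replicate 1, and do not say what was repeated. Clone 2 replicate 1 stood apart in TNF and IL6, and results that rest on it are given with and without it.

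TNF and LTB lie beside each other in the class III region of the major histocompatibility complex and were the members with the largest differences between groups, so their promoters are shown with that of IL6. The windows are the 250 bases before the RefSeq start site on GRCh38.p14, read 5′ to 3′ on the strand of the gene. Capitals mark matches to a strict NF-kappaB pattern (GGG, any 2 bases, TTTCC) or to the TATA box letters TATAAA, searched on both strands. Other forms of the NF-kappaB site were not searched, so a window without capitals for it can still hold such a site.
TNF, chr6:31575315-31575564, plus strand: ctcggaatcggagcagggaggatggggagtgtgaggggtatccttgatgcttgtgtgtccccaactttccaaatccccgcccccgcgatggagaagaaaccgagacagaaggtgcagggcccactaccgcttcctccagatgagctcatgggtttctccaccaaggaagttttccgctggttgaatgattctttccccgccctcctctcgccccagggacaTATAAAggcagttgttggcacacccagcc
LTB, chr6:31582426-31582675, minus strand: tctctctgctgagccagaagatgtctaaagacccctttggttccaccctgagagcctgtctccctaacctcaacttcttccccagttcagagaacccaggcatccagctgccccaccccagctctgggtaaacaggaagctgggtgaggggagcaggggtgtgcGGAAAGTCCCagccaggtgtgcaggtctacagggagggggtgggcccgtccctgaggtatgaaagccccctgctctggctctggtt
IL6, chr7:22726950-22727199, plus strand: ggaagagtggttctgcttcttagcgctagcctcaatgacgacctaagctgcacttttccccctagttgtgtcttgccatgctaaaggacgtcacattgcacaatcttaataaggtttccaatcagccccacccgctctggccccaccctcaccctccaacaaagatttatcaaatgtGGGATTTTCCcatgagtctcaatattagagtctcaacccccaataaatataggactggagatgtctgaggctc

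The TATA letters of TNF began 29 bases before the start site, and 11.1% of 27305 promoter windows held such letters. An NF-kappaB match began 86 bases before the start of LTB, on the opposite strand, and 73 bases before that of IL6. Such a match was present in 1.73% of all windows and in 2 of the 8 members with a RefSeq entry. No AP-1 match (TGANTCA) was in these 8 windows, against 6.6% of all windows. The NFAT core GGAAA, which overlaps the NF-kappaB match of LTB on the other strand, was in 7 of the 8 windows and in 56% of all. The window without it was that of IL13, whose RefSeq start lay at -1651 bases from the Gencode canonical start. For the other members the starts differed by 0 or 1 base.

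AU-rich letters were compared in the 3′ untranslated regions of the Gencode canonical transcripts, where ATTTA is the core pentamer and the nonamer is the pentamer with TT on either side. The densest 30 bases of TNF and of 3 other members are shown on GRCh38, with the pentamers in capitals, because TNF held many of these letters and LTB none.
TNF, chr6:31577999-31578028, plus strand: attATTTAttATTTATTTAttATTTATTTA
CSF2, chr5:132076072-132076101, plus strand: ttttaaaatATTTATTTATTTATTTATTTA
IL1B, chr2:112830003-112830032, minus strand: tgagcaaccgcttccctATTTATTTATTTA
LIF, chr22:30240522-30240551, minus strand: ATTTAttcaatgtcatATTTAaaatATTTA

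TNF held 9 pentamers and 5 nonamers in 799 bases, and LTB held 0 pentamers in 151 bases. CSF2 held 8 pentamers, LIF 7, IL1B and IL6 6 each, IL5 5, IL13 4, IL4 3 and TGFB1 2. The lengths differed, from 91 bases in IL4 to 3198 in LIF. Per kb there were 32.97 pentamers in IL4, 25.16 in CSF2, 14.12 in IL6, 13.66 in IL5 and 11.26 in TNF. IL1B had 9.84 per kb, IL13 4.83, TGFB1 2.74 and LIF 2.19, against 2.25 over all canonical transcripts. A nonamer was present in TNF, IL1B, IL13, CSF2 and LIF, which is 5 of 10 members, against 8.44% of 19538 canonical transcripts. Whether these letters act in the cells was not tested.

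A member was called expressed where its mean reached 1 FPKM in at least 1 group. By that measure TNF, LTB, IL4, IL6, LIF and TGFB1 were expressed and IL1B, IL5, IL13 and CSF2 were not. The same 6 members were kept by the filter on low counts, which passed 15944 of all genes, so the other 4 have no main test. IL4 and IL6 had their highest counts in HMC-1.2, so passing the filter and standing higher there are not independent. In RNA from whole cultures, a smaller share of expressing cells and a lower level per cell cannot be told apart. The paper's RNA methods name no stimulus of the cultures, so levels after activation were not measured.

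The 4 unexpressed members were at or near the floor of 3 counts. IL5, which encodes the eosinophil growth factor, had 0 to 2 counts per library and 0 counts in 7 of 12. IL13, an inducer of mucus and class switching, also had 0 counts in 7 libraries and reached 6 only in HMC-1.1 replicate 2. CSF2, the gene for GM-CSF, had 0 to 5 counts, the highest in clone 2 replicate 3. For each of these 3 genes the groups overlapped in counts. IL1B had 10, 4 and 6 counts in HMC-1.2, 0 to 4 in clone 1, 2 to 3 in clone 2 and 1 to 2 in HMC-1.1 libraries. HMC-1.2 thus held the 2 highest libraries, and its lowest overlapped clone 1. In edgeR without a filter IL1B gave a log2 fold change of -2.13 for HMC-1.1 relative to HMC-1.2, at an unadjusted p of 0.023 and an adjusted p of 0.072. For IL13, at 0 counts in every HMC-1.2 library, the same test gave an unadjusted p of 0.035 and an adjusted p of 0.1, and 6 of the 7 counts for HMC-1.1 were in replicate 2. A count of 3 corresponds to 0.0695 to 0.103 CPM (counts scaled by library size), and differences below that were not detectable.

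Against HMC-1.2, 5 of the 6 tested members were called changed for clone 1, 3 for clone 2 and 5 for HMC-1.1. The call needs a fold over 1.5 and an adjusted p under 0.05 by edgeR's quasi-likelihood test. TNF and IL4 were lower and LTB was higher in each of the 3 comparisons, which share the HMC-1.2 libraries. Over all tested genes the share so called was 20% for clone 1, 16.5% for clone 2 and 17.6% for HMC-1.1. The median log2 fold change of the 6 members was -1.1, -0.51 and -1.41, in that order. That of all genes was 0.01, 0 and 0.01. As IL4 and IL6 had their highest counts in HMC-1.2, their part in these counts and medians is not independent of the filter.

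**Figure D1:**
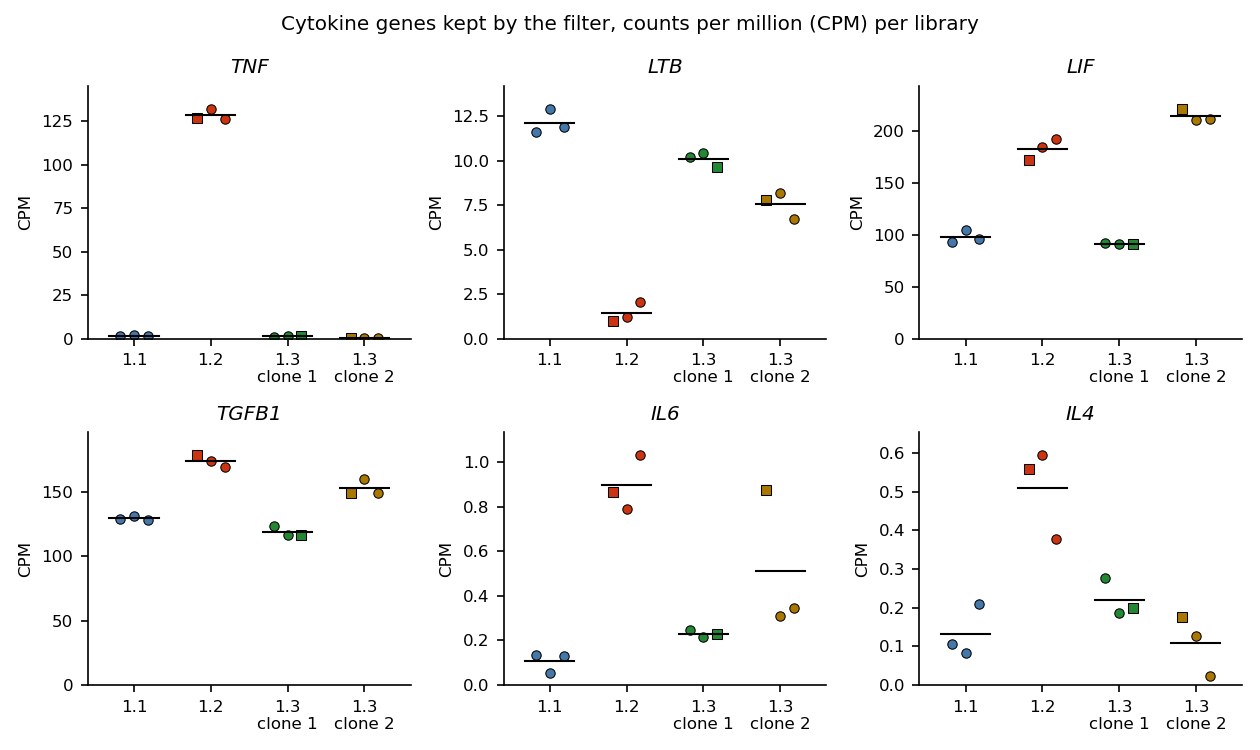
CPM of the 6 tested genes in each library, with 1 panel per gene, a linear axis from 0 that differs between panels, and a line at the group mean. Squares are the libraries labelled resent. HMC-1.2 stands apart upward in TNF, near 129 CPM, and downward in LTB, near 1.41 CPM, and clone 2 replicate 1 lies above the other clone 2 libraries in IL6.

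TNF encodes tumor necrosis factor and lies at chr6:31575565-31578336 on the plus strand. Its expected counts were 4544, 4008 and 3666 in the 3 libraries of HMC-1.2, against 65, 64 and 62 for HMC-1.1 cells. Clone 1 had 34, 53 and 44 counts, and clone 2 had 17, 1 and 2. All HMC-1.2 libraries were far above all others, and neither HMC-1.1 and clone 1 nor clone 1 and clone 2 overlapped in CPM. Scaled for length, the level was 86.9 ± 1.8 FPKM (SD, n = 3) for HMC-1.2. It was 0.843 ± 0.168 for clone 1, 0.13 ± 0.182 for clone 2 and 1.19 ± 0.0557 for HMC-1.1. By the 1 FPKM threshold TNF was expressed in HMC-1.1 and HMC-1.2 and not in the clones.

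Against HMC-1.2, the log2 fold change of TNF was -6.74 ± 0.14 (SE) in clone 1 at an adjusted p of 1.9e-16. It was -6.24 ± 0.13 in HMC-1.1 at 2.2e-16. In clone 2 it was -9.52 at 7.2e-17. Its SE of 0.18, taken from the test statistic, is too small. Against HMC-1.1, where the fold was smaller, TNF in clone 2 had an SE of 0.39. Clone 2 replicates 2 and 3 were under the floor of 3 counts and replicate 1 gave 17 of the 20 counts of the group. Without replicate 1 the log2 fold change of clone 2 was -11.65, a value that rests on 3 counts. Taken as a ratio of CPM with an exact 95% interval for counting error only, HMC-1.2 was 107-fold over clone 1 (89.9 to 128), 75.5-fold over HMC-1.1 (65.5 to 87.6) and 748-fold over clone 2 (484 to 1220). Without replicate 1 of clone 2 the ratio was 3520 (1200 to 17100).

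TNF made up 39.6% to 40.6% of the summed FPKM of the 10 members in HMC-1.2. The share was 0.658% to 1.05% for clone 1, 0.014% to 0.246% for clone 2 and 1.1% to 1.2% for HMC-1.1. The summed level was 216 to 219 FPKM for HMC-1.2, 93.3 to 100.4 for clone 1, 138 to 145 for clone 2 and 100.4 to 108 for HMC-1.1. The libraries of HMC-1.2 were the highest and did not overlap with any other group.

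Among the remaining pairs, TNF was not called in clone 1 against HMC-1.1 (log2 fold change -0.5 ± 0.26, adjusted p = 0.2). It was lower in clone 2 than in HMC-1.1 by -3.28 ± 0.39 on the log2 scale at an adjusted p of 5e-06, and by -5.42 without replicate 1 of clone 2. Clone 1 was above clone 2 by 2.78 ± 0.43 at an adjusted p of 4.1e-05, and by 4.92 without that replicate. The direction was the same with and without it, while the size depended on that library.

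**Figure D2:**
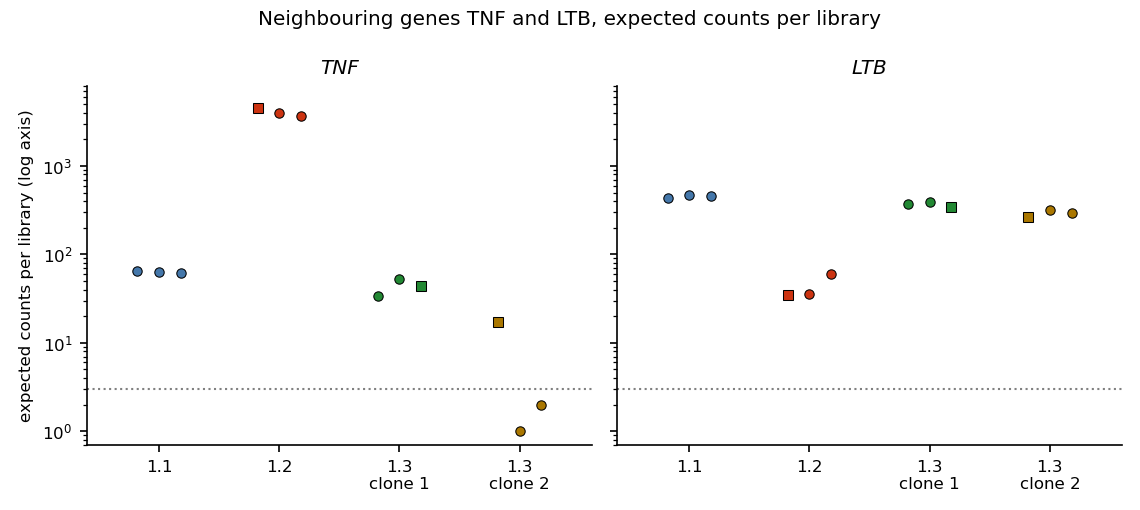
Expected counts of TNF and LTB per library on a log axis, with squares for the libraries labelled resent and a dotted line at the floor of 3 counts. TNF is highest in HMC-1.2, at 3666 to 4544 counts, and under the floor in clone 2 replicates 2 and 3, whereas LTB is lowest in HMC-1.2, at 35 to 60 counts.

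LTB, which encodes lymphotoxin beta, lies at chr6:31580525-31582522 on the minus strand, with its start 7 kb from that of TNF. It went the opposite way. HMC-1.1 had 438, 471 and 457 counts, HMC-1.2 had 35, 36 and 60, clone 1 had 370, 390 and 339, and clone 2 had 266, 318 and 291. Every HMC-1.2 library was below all others, and in CPM the 4 groups did not overlap, in the order HMC-1.1, clone 1, clone 2, HMC-1.2. The mean levels in this order were 19.2 ± 1.25, 15.8 ± 0.584, 11.8 ± 1.14 and 2.1 ± 0.832 FPKM (SD, n = 3).

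LTB was higher than in HMC-1.2 by 7.27-fold in clone 1 (log2 2.86 ± 0.17, adjusted p = 1.4e-10), by 5.43-fold in clone 2 (2.44 ± 0.17, 1.9e-09) and by 8.77-fold in HMC-1.1 (3.13 ± 0.16, 4.1e-11). HMC-1.2 replicate 3 held more LTB than the other 2, and leaving out single libraries moved these values to between 2.63 and 3.22, 2.21 and 2.81, and 2.9 and 3.5. The call held in each case. Clone 2 was below HMC-1.1 by -0.69 ± 0.12 at an adjusted p of 0.00032, which is 1.61-fold. Clone 1 and HMC-1.1 were not called different (-0.27, adjusted p = 0.14), nor were clone 1 and clone 2, where the adjusted p of 0.01 came with a log2 difference of 0.42.

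None of the 9 genes examined around TNF and LTB was called lower against HMC-1.2. LTA, the gene of lymphotoxin alpha that partners with LTB, starts 3.5 kb from TNF and had 7 to 16 counts per library. Its log2 fold changes from HMC-1.2 to clone 1, clone 2 and HMC-1.1 were -0.58, -0.33 and -0.73 at adjusted p of 0.19, 0.48 and 0.11. LST1, a leukocyte gene, starts 10.6 kb from TNF and was higher by 2.03, 1.76 and 2.12. NCR3, which encodes the activating receptor NKp30, was higher by 1.07, 0.67 and 1.15, and AIF1, which encodes an actin-binding protein of myeloid cells, by 0.71, 0.73 and 0.85. ATP6V1G2, which encodes a subunit of the vacuolar proton pump, was called only in clone 1 (1.09, 0.1 and 0.74). That call was lost without HMC-1.2 replicate 2, at 0.85 and an adjusted p of 0.055, and HMC-1.1 was called, at 1.14 and 0.024, without HMC-1.2 replicate 1. Of the 9 neighbours, edgeR called 5, 3 and 3 higher in the 3 comparisons, against 11.8%, 7.98% and 10.1% of all genes. It called 0 lower, as did DESeq2, and 1 was lower at an unadjusted p under 0.05 in each.

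**Figure D3:**
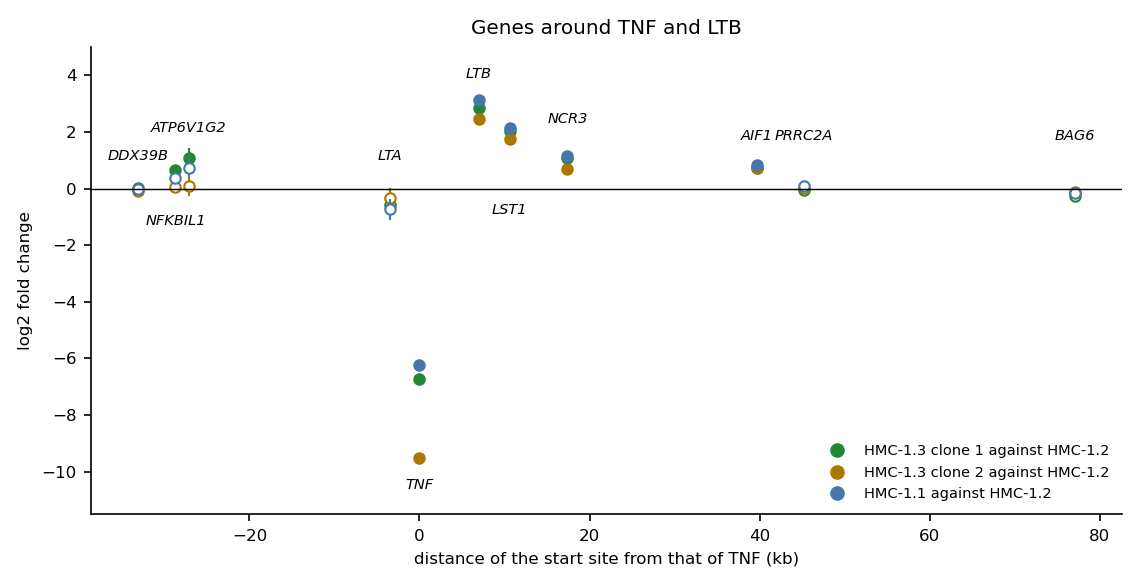
TNF, LTB and 9 neighbouring genes, with the log2 fold change relative to HMC-1.2 by distance of the start site from that of TNF in kb, with bars for the standard error, filled points for genes called changed and open points for the others. TNF lies at -6.24 to -9.52 while LTB and LST1, 7 and 10.6 kb away, lie above 1.7. The bars are approximate and too short for TNF in clone 2.

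LIF and TGFB1 were the members with high levels in all 4 groups. LIF encodes leukemia inhibitory factor, a cytokine that signals through LIFR and gp130, at chr22:30240453-30246759 on the minus strand. Its FPKM per library was 51.2, 53.8 and 54.4 for HMC-1.2, 27.8, 27.8 and 26.7 for clone 1, 63.5, 63.2 and 64.6 for clone 2, and 24.9, 30.1 and 29.9 for HMC-1.1. Clone 2 and HMC-1.2 were high and clone 1 and HMC-1.1 low, with no overlap between any of the 4 in CPM, although clone 1 and HMC-1.1 overlapped in FPKM. Against HMC-1.2, LIF fell by 1 on the log2 scale for clone 1 (SE 0.05, adjusted p = 5.3e-12) and by 0.9 for HMC-1.1 (SE 0.05, 2.4e-11). In clone 2 it was higher by 0.23 at an adjusted p of 0.00029, a fold of 1.17 that is under the threshold. Clone 2 was above HMC-1.1 by 1.13 ± 0.04 (4.4e-12), and clone 1 was below clone 2 by -1.23 ± 0.05 (1e-12). The clones, which share their parental line and labelled KIT genotype, thus lay 2.35-fold apart. Clone 1 and HMC-1.1 were not called different (-0.1, adjusted p = 0.15).

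TGFB1 encodes transforming growth factor beta 1, which acts on growth and fibrosis, at chr19:41301587-41353922 on the minus strand. Its FPKM per library was 73.5, 70.8 and 69.9 for HMC-1.2, 54.2, 48.2 and 48.9 for clone 1, 59.9, 67.1 and 63.1 for clone 2, and 55.1, 55.6 and 51.6 for HMC-1.1. Each library of HMC-1.2 was above all others. The log2 fold change against it was -0.55 ± 0.04 for clone 1, -0.19 ± 0.04 for clone 2 and -0.43 ± 0.04 for HMC-1.1. The adjusted p was 9.5e-10, 0.00038 and 3.1e-08, but no fold exceeded 1.47, so TGFB1 was not called in any of these. In clone 1 against clone 2 it was -0.36 at 3.4e-07, and clone 2 against HMC-1.1 gave 0.24 at 6e-05. Clone 1 against HMC-1.1 gave -0.12 at 0.027. In CPM the 4 groups did not overlap, while in FPKM clone 1 overlapped with HMC-1.1.

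IL6 and IL4 were at low levels. IL6 encodes interleukin-6, at chr7:22725884-22732002 on the plus strand. Its counts were 31, 24 and 30 for HMC-1.2, 9, 8 and 8 for clone 1, 30, 12 and 15 for clone 2, and 5, 2 and 5 for HMC-1.1. Clone 2 overlapped with HMC-1.2, since clone 2 replicate 1 was as high as HMC-1.2, and the other groups did not overlap with their neighbours in CPM. The mean level reached 1 FPKM only in HMC-1.2, at 1.24 ± 0.215 (SD, n = 3). IL6 was lower than in HMC-1.2 by -1.95 ± 0.41 in clone 1 (adjusted p = 0.00061) and by -3.03 ± 0.47 in HMC-1.1 (3.5e-05). Clone 2 was above HMC-1.1 by 2.19 ± 0.49 (0.0022), and by 1.59 without clone 2 replicate 1 (0.017). That call was lost with limma on log2(FPKM + 1), at an adjusted p of 0.132, and on log2(FPKM + 0.1), at 0.0982. Clone 1 was below clone 2 by -1.11 ± 0.43 at an adjusted p of 0.042, which DESeq2 gave as 0.0797 and which ranged from 0.0211 to 0.521 over the alternatives.

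In clone 2 against HMC-1.2 the log2 fold change of IL6 was -0.84 ± 0.37 at an adjusted p of 0.07 and was not called. Without clone 2 replicate 1 it was -1.44 at 0.00431 and was called, and without that library the difference between clone 1 and clone 2 was -0.51 at 0.346 and was lost. That call was also lost without any single library of clone 1. Of the clone 2 libraries, replicate 1 was the highest in both TNF and IL6. The 3 genes patterned most like TNF were picked from these same libraries. Replicate 1 held 32 counts of FERMT3 against 43 and 48, 8 of SIGLEC12 against 14 and 16, and 2 of LDLRAD4 against 8 and 10. Why replicate 1 stood apart in TNF and IL6 was not tested. STEAP1B and the antisense RNA IL6-AS1 overlap IL6 on the other strand, 2 antisense RNAs overlap LIF, and TGFB1 also overlaps annotated genes. The strand setting of the counting is not given in the sources used here, so reads of such partners cannot be told apart from these members.

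IL4, the type 2 cytokine that drives class switching to IgE, lies at chr5:132673986-132682678 on the plus strand. Its counts were 20, 18 and 11 for HMC-1.2, 10, 7 and 7 for clone 1, 6, 5 and 1 for clone 2, and 4, 3 and 8 for HMC-1.1. Each HMC-1.2 library was above all others, while HMC-1.1 overlapped with both clones. It reached expression only in HMC-1.2, at 2.08 ± 0.659 FPKM (SD, n = 3), and FPKM did not follow counts closely, since 8 counts gave 1.29 FPKM in HMC-1.1 replicate 3 and 11 counts gave 1.32 in HMC-1.2 replicate 3. IL4 was lower than in HMC-1.2 by -2.26 ± 0.51 in clone 2 (adjusted p = 0.0014) and by -1.92 ± 0.49 in HMC-1.1 (0.0033). Both calls were lost with limma on log2(FPKM + 0.1), at adjusted p of 0.0576 and 0.0533. In clone 1 it was lower by -1.21 ± 0.45 at an adjusted p of 0.03, a call that was lost in DESeq2 (adjusted p = 0.102) and over all alternatives ranged from 0.0143 to 0.251. It was lost without HMC-1.2 replicate 1 or 2 or clone 1 replicate 2 or 3. No pair among HMC-1.1 and the clones was called.

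**Figure D4:**
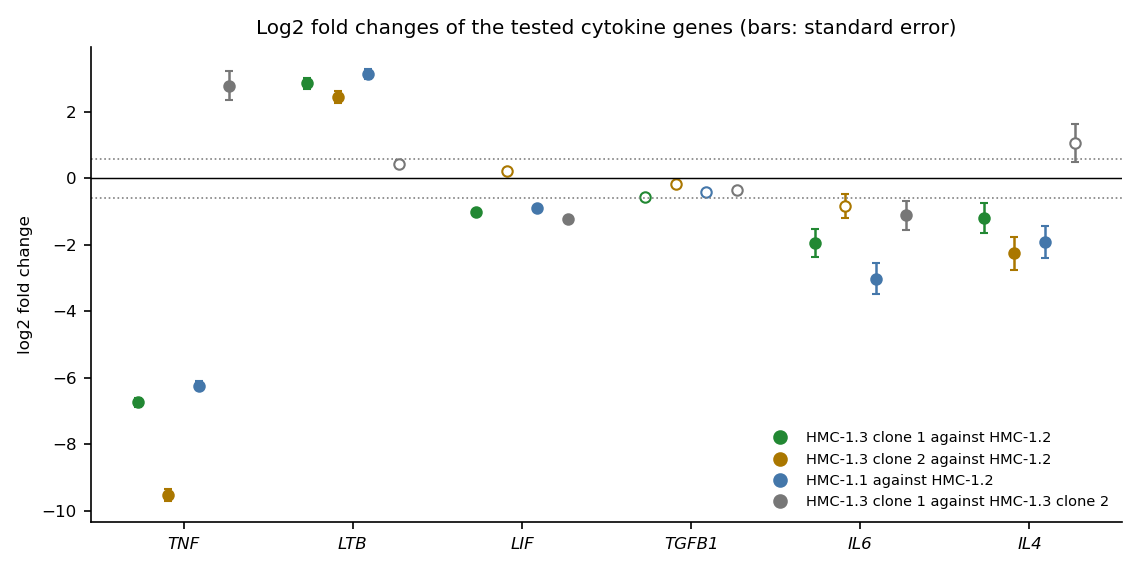
Log2 fold changes of the 6 tested genes in 4 comparisons, with bars for the standard error, filled points for genes called changed and dotted lines at a 1.5-fold change. TNF lies between -6.24 and -9.52 and LTB between 2.44 and 3.13 against HMC-1.2, and the clones lie apart in TNF, LIF and IL6. The bars are approximate and too short for TNF in clone 2 against HMC-1.2.

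In clone 1 against HMC-1.1, edgeR called 0 of the 6 members, against 1.01% of all genes. DESeq2 also called 0, and in edgeR LTB, LIF and TGFB1 had an unadjusted p of 0.04, 0.045 and 0.0038. In clone 2 against HMC-1.1 it called 4 of 6, against 8.19% of all genes. In clone 1 against clone 2 it called 3 of 6, TNF, IL6 and LIF, against 12.6% of all genes. The members called in clone 2 against HMC-1.1 were TNF, LTB, IL6 and LIF.

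The genes with the most similar pattern were sought over the 4 group means of log2 CPM, centred on each gene, by root mean square difference. For TNF these were FERMT3, which encodes the integrin activator kindlin-3, SIGLEC12 and LDLRAD4, at 0.64, 0.86 and 1.12 log2 units. FERMT3 was at 126 ± 3.59 FPKM in HMC-1.2 libraries against 2.54 ± 0.445 for HMC-1.1 (SD, n = 3). For LTB the nearest were BEND6, CYP2U1 and KEL at 0.11, 0.14 and 0.15. For LIF they were AE000661.37, EIF4G3 and IFI27 at 0.066, 0.069 and 0.093. For TGFB1, UFD1L, SPATA5 and ISOC2 lay within 0.011. IL6 was nearest to CTD-3214H19.16, SH3TC2 and KRT79 at 0.2 to 0.21, and IL4 to ST3GAL6, LDHD and SULT2A1 at 0.047 to 0.068. These are distances over 4 points and carry no test. CTD-3214H19.16 varied widely within groups, with 50.8, 159.4 and 15.48 counts in HMC-1.2 and 44.73, 0 and 24.74 in HMC-1.1.

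Genes for receptors of the 10 cytokines were also examined. Of 18 tested receptor genes, 7, 5 and 6 fell from HMC-1.2 to clone 1, clone 2 and HMC-1.1, and 1 rose in each. Among all tested genes 8.18%, 8.51% and 7.52% fell and 11.8%, 7.98% and 10.1% rose. IL2RG, the common gamma chain that pairs with the IL-4 receptor, was at 17.8 ± 1.42 FPKM in HMC-1.2 and at 1.08 to 1.64 in the other group means, which is -3.96, -3.81 and -4.26 on the log2 scale. TNFRSF1B, a receptor of TNF, was lower by -2.32, -3.46 and -2.53. LIFR, the receptor of LIF, was lower by -3.25, -1.55 and -3.08, and IL5RA, the receptor chain of IL-5, by -1.73, -2.99 and -2.11. Each of these 4 was lower in all 3 comparisons by edgeR, with adjusted p of at most 1.5e-08.

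Genes for the control of mRNA decay and translation bear on transcripts with AU-rich elements. Not all of the 10 genes on this list promote decay. ZFP36L1, which encodes a protein that binds such elements, was at 15 ± 0.709 FPKM in HMC-1.2, 65.2 ± 3.63 for clone 1, 46.8 ± 1.73 for clone 2 and 65.6 ± 2.89 for HMC-1.1 (SD, n = 3). From HMC-1.2 it rose by 2.06, 1.63 and 2.07 on the log2 scale, in that order. ZFP36L2 was called only in clone 2, by 0.63. Of the 10 genes on the list 1, 2 and 1 rose, against 11.8%, 7.98% and 10.1% of all tested genes. EdgeR and DESeq2 called 0 lower, with 5, 2 and 2 lower at an unadjusted p under 0.05. Among genes for transcription factors that act on cytokine genes, MAF fell by 1.16, 0.78 and 1.15 on the log2 scale. The other 7 tested were not called, and 8.18%, 8.51% and 7.52% of all tested genes fell.

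Genes for the release and processing of the cytokines moved in no common direction, with 1, 3 and 1 of 11 rising and 2, 1 and 2 falling. The shares of all tested genes were 11.8%, 7.98% and 10.1% rising and 8.18%, 8.51% and 7.52% falling. GSDMD, the pore protein that lets IL-1 beta leave the cell, rose by 1.44 in clone 1 and 1.09 in HMC-1.1, while clone 2 had -0.27 at an adjusted p of 0.3. CASP1, which cuts the IL-1 beta precursor, was called only in clone 2, by 1.38, a call lost without HMC-1.2 replicate 3 (adjusted p = 0.053) or clone 2 replicate 2 (0.051). Without HMC-1.2 replicate 2 it was called in clone 1 (1.49) and HMC-1.1 (1.49) too, the latter also without HMC-1.1 replicate 2 (1.22). PYCARD, the inflammasome adaptor, fell by 0.9 on the log2 scale in clone 2 and by 0.66 in HMC-1.1, where the fold was under 1.5 without HMC-1.2 replicate 2 (-0.58). THBS1, which activates latent TGF-beta, was called lower in clone 1 (-1.09) and HMC-1.1 (-1.3) and higher in clone 2 (1.7), where replicate 3 had 904 counts and the others 237 and 331. Without that replicate it was 1.04 in clone 2, still called.

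Of 7 tested genes that respond to TGF-beta, 2 were called lower in clone 2 against HMC-1.2, as were 8.51% of all tested genes. TGIF1, a repressor in this pathway, was at -1.04 and LTBP2, a matrix protein, at -0.92, which was not called without the 3 resent libraries (-0.7, adjusted p = 0.052). In clone 1 and HMC-1.1 edgeR and DESeq2 each called 0 of the 7, with 3 and 4 at an unadjusted p under 0.05. The share of all tested genes that edgeR called either way was 20% and 17.6%.

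Of 8 tested genes that respond to gp130 signalling, SOCS3, a feedback inhibitor of STAT3, fell by 1.33 on the log2 scale in clone 1 and by 0.77 in HMC-1.1, and was not called in clone 2, at 0.4. BCL6 rose by 0.85 in clone 1. In clone 2, 0 of the 8 were called by edgeR or DESeq2, with 7 at an unadjusted p under 0.05. EdgeR called 16.5% of all tested genes either way there. Against HMC-1.2, edgeR called 2 of the 8 for clone 1, where DESeq2 called 3. The edgeR share of all tested genes was 20% in that comparison. HMC-1.1 had 1 of the 8 called by each method, beside 17.6% of all tested genes by edgeR.

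**Figure D5:**
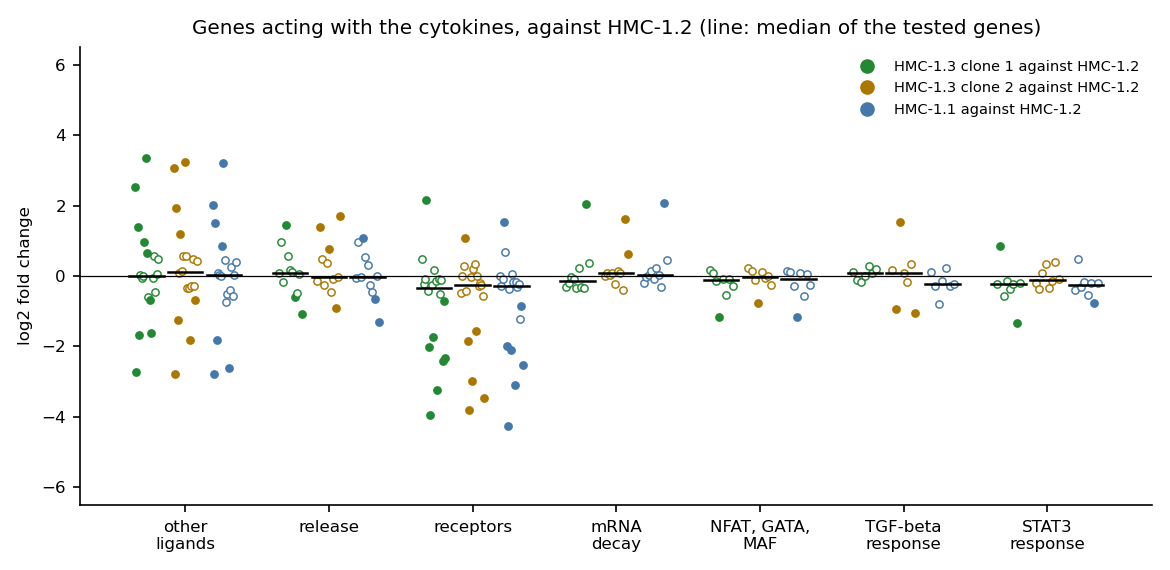
Tested genes of 7 lists by log2 fold change relative to HMC-1.2, with filled points for genes called changed, open points for the others and a line at the median of each list and comparison. The receptors have a median of -0.34, -0.27 and -0.29 for clone 1, clone 2 and HMC-1.1.

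Of 35 other cytokine and growth factor genes, 18 were tested, of which 5, 4 and 4 rose and 4, 4 and 3 fell. Over all tested genes 11.8%, 7.98% and 10.1% rose and 8.18%, 8.51% and 7.52% fell. IL1RN, the antagonist of the IL-1 receptor, was higher by 3.34, 3.23 and 3.2 for clone 1, clone 2 and HMC-1.1. Its level was 3.21 ± 0.417 FPKM for HMC-1.2 and 30.5 to 33.7 in the other group means. CSF1, the macrophage growth factor, was lower by -2.74, -2.79 and -2.78, from 45 ± 0.915 FPKM in HMC-1.2. PDGFA, a growth factor for mesenchymal cells, was lower by -1.62, -1.82 and -2.61 from 29 to 33 counts. AREG, an EGF receptor ligand, was called higher in all 3 from 1 to 2 counts in HMC-1.2 libraries, with 2 to 20 for clone 1, 11 to 24 for clone 2 and 6 to 11 for HMC-1.1. The call was lost in clone 1 without its replicate 2 (adjusted p = 0.068), and in HMC-1.1 with DESeq2 (0.065) and without any single library of the pair.

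The interleukin cluster of chromosome 5 holds IL4, IL5, IL13 and CSF2. There 2 of the 7 tested neighbours rose in each comparison, against 11.8%, 7.98% and 10.1% of all tested genes. EdgeR and DESeq2 called 0 lower, with 1, 0 and 0 at an unadjusted p under 0.05. ACSL6, a fatty acid ligase gene, rose by 2.12, 1.07 and 2.04, and the carnitine transporter gene SLC22A5 by 0.8, 0.93 and 0.72. Neither followed IL4, which was lower in the same comparisons.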

How the data were processed

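Polyadenylated RNA was captured with oligo-dT beads and sequenced from stranded libraries of 12 cultures, 3 per group, with groups taken from the labels. The expected counts deposited by the authors are RSEM 1.3.0 estimates per gene and are not normalized. Per the submitters' processing notes, reads were trimmed with cutadapt 2.10 and aligned to hg38 with STAR 2.5.3. Of the count values 7.39% were not whole. Deposited FPKM values, which correct for gene length and depth, served for levels.

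Counts were rounded and tested with edgeR 4.0.16 in R 4.3.3 (quasi-likelihood test, TMM, filterByExpr, 4 groups in 1 model), with Benjamini-Hochberg adjustment over all 15944 genes kept. Calls needed a fold over 1.5 besides an adjusted p under 0.05. The script was tested on simulated data. Errors are SD over 3 libraries for levels. For fold changes they are an approximate SE, the absolute log2 fold change divided by the square root of the F statistic. It can be too small where the fold is large. Exact intervals and the floor of 3 counts cover counting error only. Totals of 29225900 to 43181402 counts set the precision, and the replicates differed by more than sampling noise.

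The members and the lists were chosen with earlier results of these data known. Named genes are the 10 members, up to 4 genes per list with the largest mean absolute change among those called against HMC-1.2, and the 3 nearest patterns per tested member. LTA was named after its values were seen. Some listed genes are not reported here by themselves. Positions and transcripts are from Gencode 44 on GRCh38, and promoters from RefSeq.

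Alternatives were DESeq2 1.42.0, RLE factors, other filters, only the 2 groups compared, a replicate block, a term for resent libraries, glmTreat, no fold threshold, limma 3.58.1 on log2(FPKM + 1) and log2(FPKM + 0.1), and leaving out each library. Leaving out all 3 resent libraries was added after seeing the data. The strand setting of the counting is not given in the sources used here.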

Additional observations from a re-analysis of the deposited data

Results flagged for a closer look

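The clones, which have the same labelled KIT genotype, differed from each other in 3 members by edgeR's quasi-likelihood test of clone 1 against clone 2. TNF was higher in clone 1 by 2.78 on the log2 scale, in 3 of 3 libraries against all 3 of clone 2, at an adjusted p of 4.1e-05. LIF was lower in clone 1, at -1.23, in 3 of 3 libraries at an adjusted p of 1e-12. IL6 was also lower in clone 1, at -1.11 and an adjusted p of 0.042, in 3 of 3 libraries. Clone 2 replicate 1, labelled as resent, held 17 of the 20 TNF counts and 30 of the 57 IL6 counts of its group. Without it the difference was 4.92 for TNF, and -0.51 for IL6 at an adjusted p of 0.346. With 1 line per clone, a difference between the clones and a difference between cultures of them cannot be told apart.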

How the results depend on the processing

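Over 36 log2 fold changes of the 6 tested members, 576 of 608 alternative values kept direction and call, 25 lost the call, 4 gained it and 3 turned direction. The 3 turns were all of IL4 in clone 2 against HMC-1.1, which was not called: 0.0431 with limma on log2(FPKM + 1), 0.14 without HMC-1.1 replicate 3 and 0.17 without clone 2 replicate 3, in a range of -0.83 to 0.17 over single libraries left out. With no fold threshold, 5 members were called in clone 2 against HMC-1.2, 1 in clone 1 against HMC-1.1 and 5 in clone 1 against clone 2. Leaving out 1 library gave 4 to 6 members called in clone 1 against HMC-1.2, 3 to 4 in clone 2 against HMC-1.2, 2 to 3 in clone 1 against clone 2, and the main counts of 5, 0 and 4 in the other pairs. Replicate numbers did not pair the samples: over 18 same-number pairs the correlation of deviations was -0.043 to 0.096, with 0 over 0.1. With a replicate block, IL6 in clone 2 against HMC-1.2 was called at -0.89 and an adjusted p of 0.049. The calls of IL4 in clone 1 against HMC-1.2 and of IL6 between the clones were each lost in 10 of 17 alternatives, IL6 in clone 2 against HMC-1.1 in 2 limma fits, IL4 relative to HMC-1.2 for both clone 2 and HMC-1.1 with limma on log2(FPKM + 0.1) (adjusted p = 0.0576 and 0.0533), and LTB in clone 2 against HMC-1.1 with glmTreat. Without the 3 resent libraries, chosen after seeing the data, IL6 was -1.47 in clone 2 against HMC-1.2 at an adjusted p of 0.0129. Causes were not tested. Low counts limit IL4 (1 to 20 per library), IL6 (2 to 31) and TNF in clone 2 (1 to 17).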
